A study of Rattus norvegicus with 6 samples.

Results

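The macrophage and complement genes described here are C1qa, C1qb, C1qc, C3, Cd68, Adgre1, Lyz2, Aif1, Csf1r and Cd74, taken from the table by gene name. They are 10 of the 25689 rows of a count table of RNA from isolated sensory neurons of dorsal root ganglia (DRGs) L1-L2, taken from rats of the spontaneously hypertensive strain (SHR). All 10 passed the filter on low counts, among 14919 genes tested. The rats were wild type and labelled as 6 to 8 weeks old, while the study's methods give an older age at purchase. Tissue was taken 4 weeks after surgical removal of the perirenal fat on both sides, called PRATA for perirenal adipose tissue ablation, or after a sham operation. There were 3 samples per group and the series describes 3 rats for each operation. The comparison asks which genes differ in these neurons after the fat is removed. Both groups carry the hypertensive background, and no rats of a normotensive strain were sequenced here.

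Cells were freed from the DRGs with collagenase and trypsin, and neurons were rinsed off the dish after 5 h because they attach more slowly than glia. The preparation was therefore enriched rather than sorted, and all 16 sensory neuron markers were detected at a summed level of 9784 to 21530 CPM, which are counts scaled to library size. The 16 Schwann cell and satellite glia markers were also detected, at 4134 to 9262 CPM. The macrophage list, counted without the members, summed to 115.8 to 359.6 CPM.

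Macrophages live in the DRG around the neuron cell bodies and their satellite glia, where they clear debris and present antigen. They are the main source of C1q, the complex of A, B and C chains that opens the classical complement pathway, and complement tags synapses, debris and damaged cells for uptake. Survival of macrophages depends on the receptor Csf1r, which is bound by the ligands Csf1 and Il34.

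Promoter sequences were placed beside the expression values because the C1q genes and Lyz2 followed each other across the samples while Adgre1 did not. C1qa, C1qc and C1qb are consecutive genes on chromosome 5 in RefSeq, C3 and Adgre1 have 4 genes between them on chromosome 9, and Csf1r and Cd74 have 8 between them on chromosome 18. RefSeq (build GRCr8) gave an upstream window for 8 of the 10 members, without C1qc and Aif1. The windows below cover the 250 bases before the annotated start, 5′ to 3′ on the gene's strand, at chr5:154419934-154420183 (C1qa, minus strand), chr5:154407828-154408077 (C1qb, minus), chr7:54798012-54798261 (Lyz2, minus) and chr9:2329190-2329439 (Adgre1, plus). Capitals mark GAGGAA or its reverse complement TTCCTC, 1 form of the purine-rich sequence that the myeloid factor PU.1 recognises.
C1qa: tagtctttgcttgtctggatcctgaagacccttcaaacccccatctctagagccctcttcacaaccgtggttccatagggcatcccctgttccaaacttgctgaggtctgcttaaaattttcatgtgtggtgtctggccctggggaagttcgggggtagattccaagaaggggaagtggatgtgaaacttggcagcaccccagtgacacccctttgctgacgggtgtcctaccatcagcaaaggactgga
C1qb: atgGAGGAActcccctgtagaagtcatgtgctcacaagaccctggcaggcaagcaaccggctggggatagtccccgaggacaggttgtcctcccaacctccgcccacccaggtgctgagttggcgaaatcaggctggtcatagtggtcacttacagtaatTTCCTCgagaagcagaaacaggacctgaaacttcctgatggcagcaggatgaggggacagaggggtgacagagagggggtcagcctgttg
Lyz2: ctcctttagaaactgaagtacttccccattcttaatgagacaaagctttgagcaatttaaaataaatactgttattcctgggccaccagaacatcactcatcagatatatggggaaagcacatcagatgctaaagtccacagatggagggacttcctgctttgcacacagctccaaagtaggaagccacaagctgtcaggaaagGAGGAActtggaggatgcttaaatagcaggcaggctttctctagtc
Adgre1: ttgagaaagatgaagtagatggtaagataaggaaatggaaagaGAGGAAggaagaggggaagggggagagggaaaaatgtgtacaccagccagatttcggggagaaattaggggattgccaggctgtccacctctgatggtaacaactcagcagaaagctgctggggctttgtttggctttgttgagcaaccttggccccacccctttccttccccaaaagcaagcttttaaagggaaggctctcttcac
Searched on both strands, these 6 bases were present in 6 of the 8 windows and in 23.3% of the 33469 windows of the same length in the RefSeq table. C1qb held 2 copies, beginning at -247 and -90 from the start, Lyz2 held 1 at -46 and Adgre1 held 1 at -207. The C1qa window held no match to these 6 bases. Shorter or variant forms of the sequence were not searched for. A match of letters is a description and not evidence of binding.

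No member passed the test between the groups. With edgeR's quasi-likelihood test, 0 of the 10 members had an adjusted p under 0.05, and the same was true of all genes tested (0.0% of 14919, smallest edgeR adjusted p 0.156). At an unadjusted p under 0.05, 1 member was higher after PRATA (Lyz2) and 0 were lower, where 8.19% of all genes tested were higher and 10.1% lower at that limit. When a fold change above 2 was also required (1 on the log2 scale), Lyz2 alone was counted again, beside 1.17% of all genes higher and 3.23% lower. For none of the 10 did the 3 PRATA samples separate from the 3 sham samples, whereas 22.8% of all genes had groups that did not overlap. By sign, 8 members were higher and 2 lower (C3 and Adgre1), with a median log2 fold change of 0.73 beside 0.02 for all genes. Of all genes tested, 52.0% were higher by sign. DESeq2, voom with sample weights and limma-trend gave 0 members at an adjusted p under 0.05 too, DESeq2 having assigned an adjusted p only to Lyz2, Csf1r and Cd74. The number of cells of a type and the RNA made per cell cannot be told apart in bulk samples such as these.

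**Figure D1:**
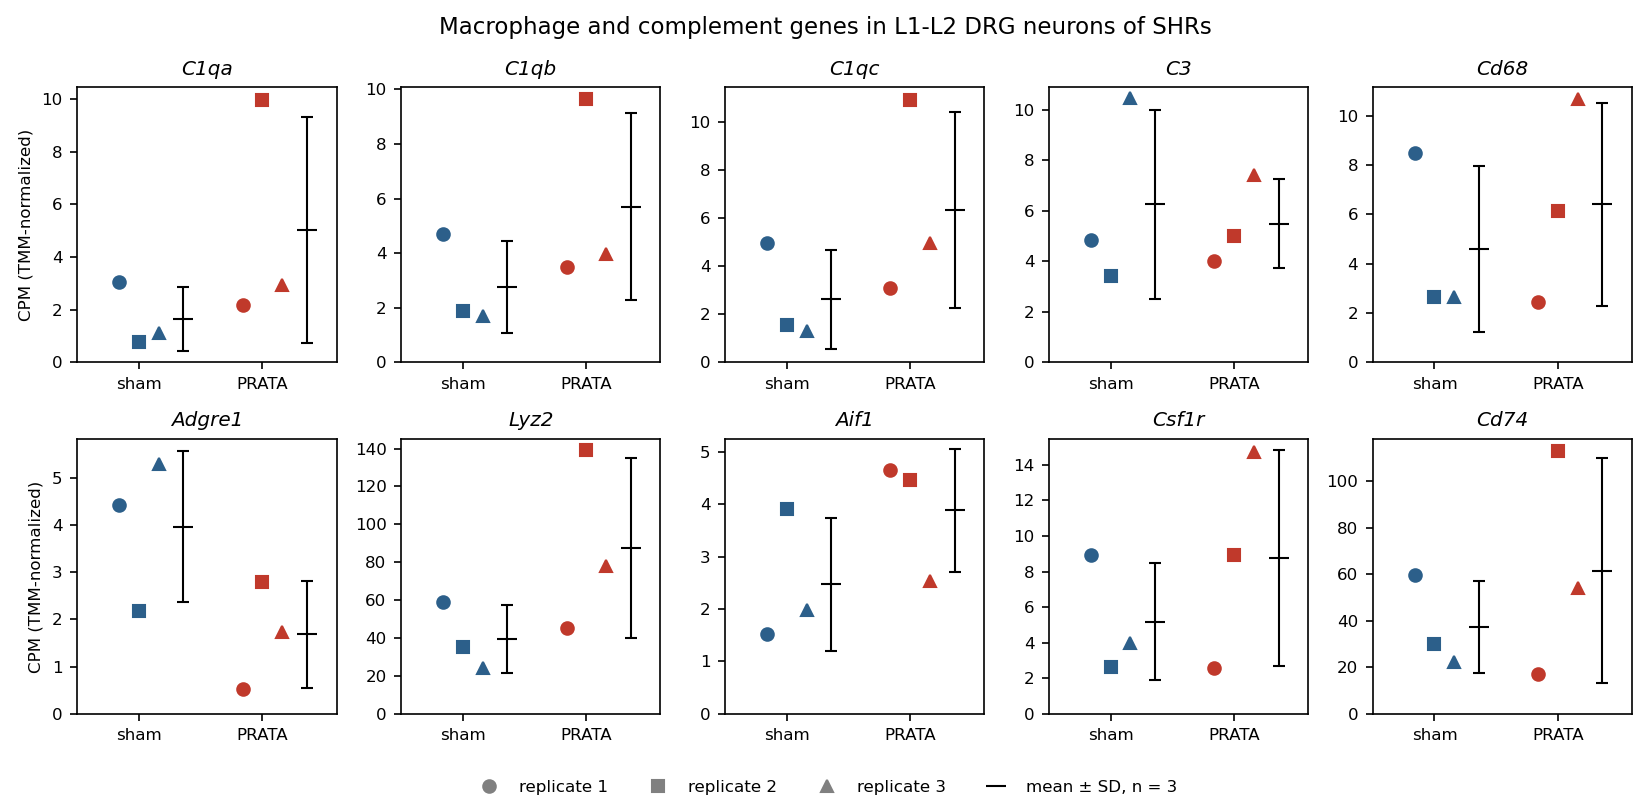
CPM scaled by the trimmed mean of M values (TMM) on a linear axis from 0, by group, for each of the 10 members; each symbol is 1 sample, and the bars are the mean ± SD of 3 samples. The groups overlap in every panel, and for C1qa, C1qb, C1qc, Lyz2 and Cd74 PRATA replicate 2 stands above all other samples.

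The C1q chains were all higher after PRATA by sign, and none passed the test. C1qa (ENSRNOG00000012807), the A chain, was measured at 2.19, 9.96 and 2.93 CPM in PRATA replicates 1, 2 and 3 and at 3.04, 0.780 and 1.13 CPM in sham replicates 1, 2 and 3. PRATA replicate 2 was the single high sample, and sham replicate 1 exceeded the other PRATA samples. The log2 fold change was 1.55 with a 95% interval of -0.07 to 3.17 (edgeR adjusted p = 0.289). C1qb (ENSRNOG00000012749), the B chain, was at 3.49, 9.64 and 3.95 CPM after PRATA and at 4.70, 1.87 and 1.70 CPM after sham. C1qc (ENSRNOG00000012804), the C chain, was at 3.10, 10.9 and 4.98 CPM after PRATA and at 4.97, 1.56 and 1.32 CPM after sham. The order of the samples was thus close to that of C1qa, with sham replicate 1 above PRATA replicate 1 for each chain. The log2 fold changes were 1.02 (interval -0.24 to 2.28) for C1qb and 1.24 (interval -0.21 to 2.68) for C1qc, with edgeR adjusted p of 0.353 and 0.329. Each of these intervals includes both no difference and a difference of more than 4-fold. Without PRATA replicate 2 the log2 fold changes were 0.59 for C1qa, 0.41 for C1qb and 0.60 for C1qc, and without sham replicate 1 they were 2.36, 1.67 and 2.14.

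As the complex needs all its chains, their balance was also examined. The summed C1q level was 8.78, 30.5 and 11.9 CPM after PRATA and 12.7, 4.21 and 4.16 CPM after sham. C1qa made up 18.5% to 32.6% of that sum over the 6 samples, C1qb 31.6% to 44.4% and C1qc 31.8% to 42.0%. Between chains, Pearson's r of the log2 levels over the 6 samples was 0.971 to 0.989, a description of samples that share library and depth. The C1q counts were small, from 5 counts of C1qa in sham replicate 2 to 137 of C1qc in PRATA replicate 2, so counting error weighs on the low samples.

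C3 (ENSRNOG00000046834), on which all complement pathways converge, was lower by sign. It was at 4.002, 5.02 and 7.43 CPM in the PRATA samples and at 4.84, 3.43 and 10.5 CPM in the sham samples. Sham replicate 3 was highest and sham replicate 2 lowest, so that the sham samples enclosed all PRATA samples. The log2 fold change was -0.19 (interval -1.22 to 0.84, edgeR adjusted p = 0.853), and without sham replicate 3 it turned to 0.41. C3 did not follow the C1q chains, with r between -0.21 and -0.06.

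Lyz2 (ENSRNOG00000005825) encodes lysozyme, a bacteriolytic enzyme abundant in macrophages and neutrophils. It was at 45.3, 139 and 78.3 CPM in the PRATA samples and at 59.2, 35.3 and 24.3 CPM in the sham samples. Of the members it had the most counts, 226 to 1747 per sample. PRATA replicates 2 and 3 were above all sham samples, and PRATA replicate 1 lay inside the sham range. The means were 87.6 ± 47.6 CPM and 39.6 ± 17.9 CPM (SD, n = 3 each). The log2 fold change was 1.14 (SE 0.45, edgeR adjusted p = 0.237), the unadjusted edgeR p was 0.0330, and the exact two-sided permutation p was 0.2, where 3 samples against 3 cannot give less than 0.1. Without PRATA replicate 2 the log2 fold change was 0.64 with an unadjusted edgeR p of 0.157, and that p was also above the limit without sham replicate 2 (0.0854) or sham replicate 3 (0.109). Reads of the near copy Lyc2 could have been shared with Lyz2, which makes the level uncertain.

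Cd74 (ENSRNOG00000018735), the invariant chain that escorts class II MHC molecules, had the largest SD within groups on the log2 scale (1.07). Its levels were 17.2, 113 and 54.1 CPM after PRATA and 59.9, 30.0 and 22.3 CPM after sham. The lowest and the highest sample of all 6 were both PRATA samples, 6.595-fold apart. The log2 fold change was 0.72 (interval -0.71 to 2.14, edgeR adjusted p = 0.563) and became -0.07 without PRATA replicate 2. Of the 10 tested genes of the list for class II antigen presentation, Cd74 included, 9 were higher by sign and 1 lower. Their median log2 fold change was 0.54. At the unadjusted limit 0 passed, beside 8.19% of all genes tested higher and 10.1% lower. RT1-Da, a class II alpha chain, was at 1.81, 15.6 and 8.70 CPM after PRATA and at 9.81, 7.80 and 2.83 CPM after sham. Like Cd74 it was lowest in PRATA replicate 1 and highest in PRATA replicate 2. Lgmn, a lysosomal protease of antigen processing and not specific to macrophages, was at 120.8 to 180.6 CPM in all samples with a log2 fold change of 0.25.

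Csf1r and Cd68 shared a different order of samples. Csf1r (ENSRNOG00000018414), the receptor for macrophage growth factors, was at 2.58, 8.92 and 14.7 CPM after PRATA and at 8.91, 2.65 and 3.97 CPM after sham. Cd68 (ENSRNOG00000037563), a glycoprotein of macrophage lysosomes, was at 2.45, 6.13 and 10.7 CPM after PRATA and at 8.50, 2.65 and 2.64 CPM after sham. For each, PRATA replicate 3 was highest, PRATA replicate 1 was lowest, and sham replicate 1 was far above the other sham samples. Their log2 levels had r = 0.970 over the 6 samples. The log2 fold changes were 0.74 (interval -0.71 to 2.18) for Csf1r and 0.46 (interval -0.95 to 1.88) for Cd68, with edgeR adjusted p of 0.557 and 0.718. Without PRATA replicate 3, Cd68 had a log2 fold change of -0.11 and Csf1r one of 0.15.

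For Csf1r, PRATA replicate 2 (8.92 CPM) was level with sham replicate 1 (8.91 CPM). PRATA replicate 3 and sham replicate 1 stand apart from the other 4 samples in another measure that does not follow the operation. A copy of the 7SL RNA gene (ENSRNOG00000054690), chosen after its values were seen, was at 133.5 and 92.5 CPM in them and at 5.78 to 8.26 CPM in the other 4 samples. The summed fibroblast markers were 2578 and 2579 CPM in the same pair of samples and 508.3 to 1562 CPM in the others. The macrophage list without the members was at 359.6 and 262.3 CPM in the pair and at 115.8 to 206.6 CPM in the others. The part of either measure in the levels of Csf1r and Cd68 was not tested. Within the other 4 samples, 2 per group, the log2 fold changes were 0.80 for Csf1r and 0.71 for Cd68, and they were 2.64, 1.89 and 2.30 for C1qa, C1qb and C1qc and 1.64 for Lyz2. The last 4 of these had an unadjusted p under 0.05 and edgeR adjusted p of 0.228 to 0.252, in a fit where 5.98% of all genes were higher at that limit. The other 6 members did not reach it there, with unadjusted edgeR p of 0.0910 (Cd74) to 0.251 (C3).

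Adgre1 and Aif1 followed neither order. Adgre1 (ENSRNOG00000046254) encodes F4/80, an adhesion receptor of mature tissue macrophages. It was at 0.516, 2.79 and 1.74 CPM after PRATA and at 4.42, 2.19 and 5.29 CPM after sham, with 4 counts in PRATA replicate 1. Only PRATA replicate 2 and sham replicate 2 overlapped. The log2 fold change was -1.21 (SE 0.59, interval -2.56 to 0.14, edgeR adjusted p = 0.313), the opposite sign to the C1q chains, Lyz2, Cd68 and Csf1r. It was negative in all 16 alternatives that kept the gene, from -1.94 to -0.84, with a smallest adjusted p of 0.0686 by voom. Aif1 (ENSRNOG00000000853) encodes Iba1, an actin-bundling protein used to stain macrophages and microglia. Its levels were 4.65, 4.46 and 2.53 CPM after PRATA and 1.52, 3.90 and 1.98 CPM after sham. PRATA replicate 1, which was lowest for 4 other members, was highest for Aif1. The log2 fold change was 0.68 (interval -0.39 to 1.75, edgeR adjusted p = 0.457).

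**Figure D2:**
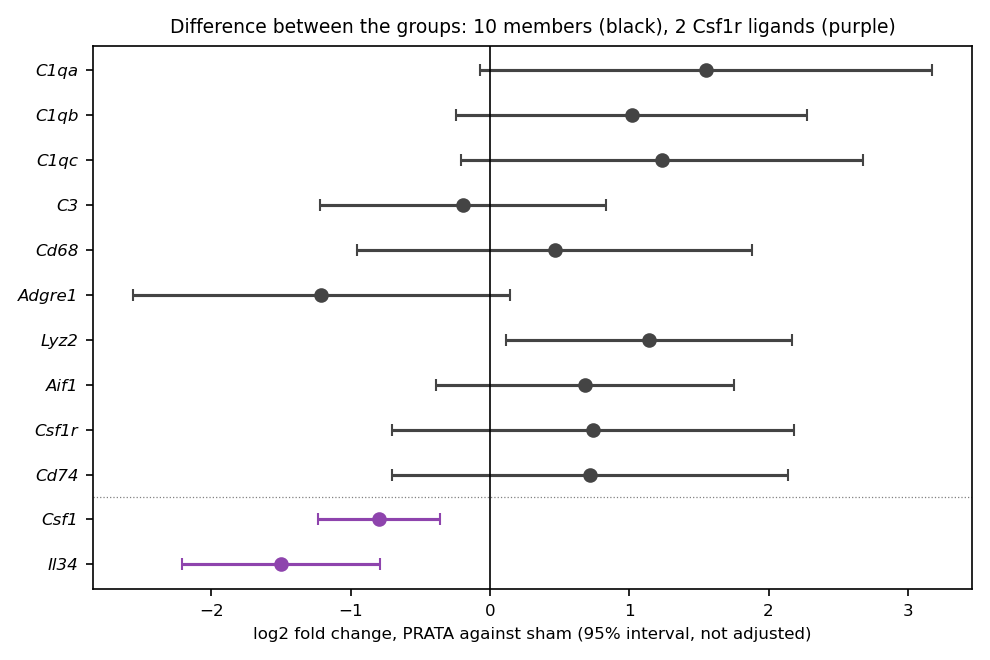
Log2 fold change of PRATA against sham from edgeR with its unadjusted 95% interval, for the 10 members (black) and the ligands Csf1 and Il34 (purple). Lyz2 is the only member whose interval, 0.12 to 2.17, leaves out 0, and none of the 10 has an adjusted p under 0.05.

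The members varied strongly between samples of the same group. Within groups, the SD of log2(CPM + 1) ran from 0.443 for Aif1 to 1.07 for Cd74, which is larger than in 76.8% to 98.0% of all genes tested. Compared with genes of a mean CPM within a factor of 2 of their own, the spread of 8 members still exceeded that of at least 83.3% of them, while the share was 80.4% for Adgre1 and 60.7% for Aif1. Averaged over the members, the level relative to each gene's mean was -0.46, 0.83 and 0.36 in the PRATA samples and 0.26, -0.55 and -0.44 in the sham samples, in log2 units. In PRATA replicate 2, 9 of the 10 members were above their own mean, whereas in PRATA replicate 1 and in sham replicate 2 only 1 was. The highest samples were therefore found in either group, and PRATA replicate 1 resembled the lower sham samples.

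**Figure D3:**
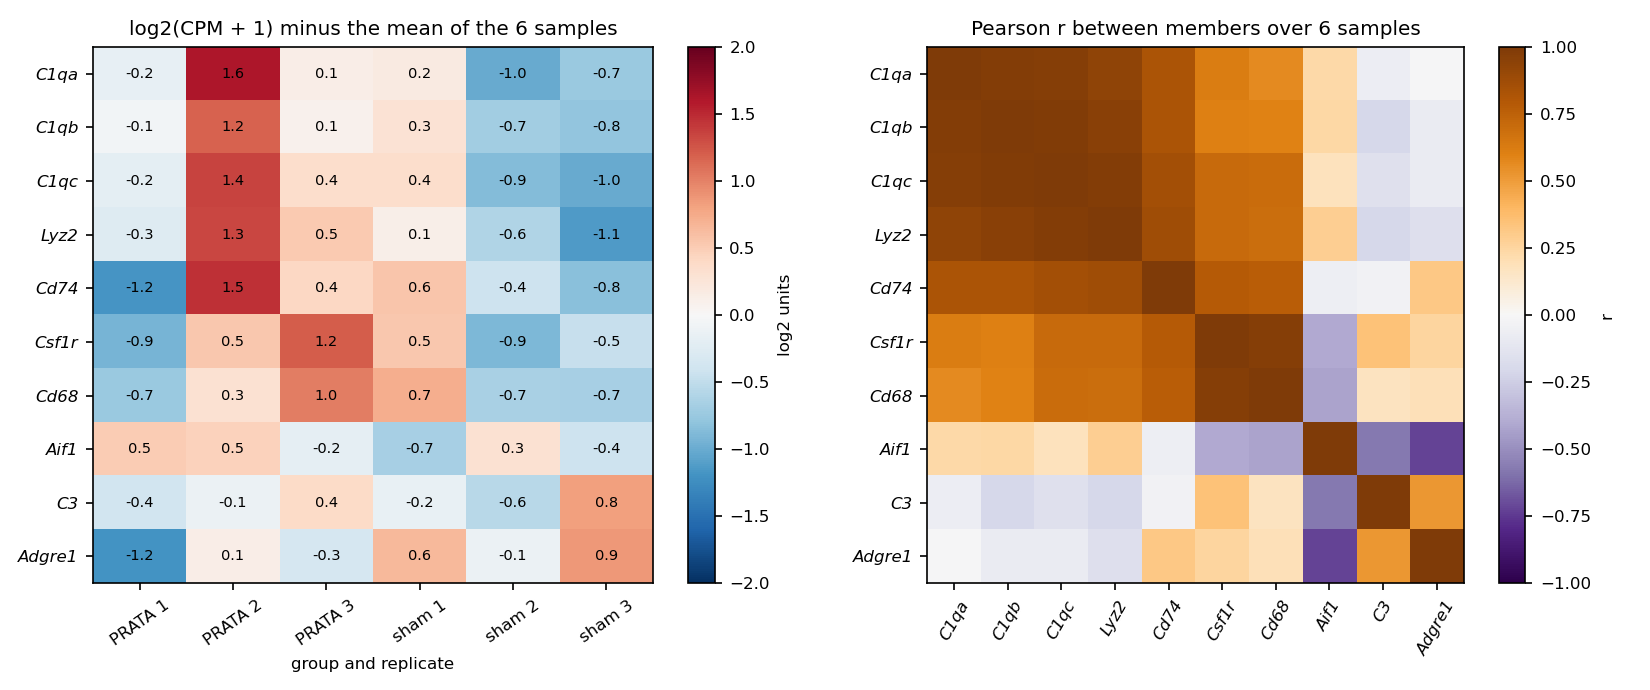
Left, log2(CPM + 1) of each member in each sample minus the gene's mean over the 6 samples; right, Pearson's r between members over the 6 samples. The C1q chains, Lyz2 and Cd74 form a block that peaks in PRATA replicate 2, Csf1r and Cd68 peak in PRATA replicate 3, and Aif1, C3 and Adgre1 stand outside.

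Within the first block r was 0.934 to 0.978 between the C1q chains and Lyz2 and 0.822 to 0.859 between the chains and Cd74. The block was not cleanly separate from Csf1r and Cd68. Cd74 had r of 0.788 with Csf1r and 0.767 with Cd68, Lyz2 had 0.705 and 0.694, and the C1q chains had 0.564 to 0.710 with these genes. Aif1 and Adgre1 ran opposite to each other (r = -0.724), although each is used as a macrophage marker. These are correlations over 6 samples and are given as descriptions. Of all other genes tested, those whose log2 levels were most like the members' mean included Cep128, Grik3, Gmip, Hook2, RT1-Db1, Dock6, Abhd18, Spred3 and AABR07029596.1, with r of 0.956 to 0.986. The class II beta chain RT1-Db1 was at 0.129, 4.14 and 2.77 CPM after PRATA and at 3.39, 0.156 and 0.283 CPM after sham.

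The wider gene lists gave no call either. Of 44 complement genes, 4 of them members, 32 were tested. By sign 19 were higher and 13 lower, with a median log2 fold change of 0.21, where 52.0% of all genes tested were higher. At an unadjusted p under 0.05, 1 complement gene was higher, beside 8.19% of all genes tested. That gene was C4b, the fourth component of the classical pathway, named after its values were seen, at 11.8, 15.5 and 3.32 CPM after PRATA and at 5.53, 3.59 and 1.32 CPM after sham. Its log2 fold change was 1.53 (SE 0.64, edgeR adjusted p = 0.260), and the split of reads with its close copy C4a is uncertain. Clu, which encodes clusterin, an inhibitor of the terminal complex that glia and neurons also make, was at 366.1, 349.2 and 315.4 CPM after PRATA and at 221.6, 304.2 and 243.1 CPM after sham. The groups of Clu did not overlap (edgeR adjusted p = 0.296), and its log2 fold change was 0.42. Colec11, a soluble collectin of the lectin pathway, did not overlap either, at 2.61 to 4.002 CPM after PRATA and 0.661 to 2.50 CPM after sham. The regulator Cd55, which speeds the decay of convertases, had a log2 fold change of 0.13 in the face of a range from 142.1 to 277.5 CPM. Of the components of the terminal complex, C5, C8a, C8b, C8g and C9 did not pass the filter, while C6 and C7 did, with log2 fold changes of -0.28 and -0.07.

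Of 48 macrophage and monocyte genes, 5 of them members, 38 were tested. By sign 27 were higher and 11 lower, with a median of 0.23, where 52.0% of all genes tested were higher. At an unadjusted p under 0.05, 3 were higher, beside 8.19% of all genes tested. The 3 were Lyz2, Coro1a and Irf8. Coro1a, a leukocyte coronin that neurons also express, was at 40.4, 37.4 and 63.3 CPM after PRATA and at 22.9, 33.6 and 26.0 CPM after sham, without overlap (log2 fold change 0.78, edgeR adjusted p = 0.195). Irf8, a transcription factor of monocytes and macrophages, was named after its values were seen and differed by 0.96 on the log2 scale (edgeR adjusted p = 0.273). In the other direction, Gpnmb, a glycoprotein of phagocytes and pigment cells, overlapped, with a log2 fold change of -0.58, which was -1.49 without PRATA replicate 3. Trem2, Cx3cr1, Marco, Ms4a7, Lst1, Clec10a, Pf4, Cd300a and Tmem119 of this list did not pass the filter, although each had at least 1 count. P2ry12, Cd163, Mrc1, Siglec1 and Stab1 of the same list did pass it.

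The ligands of Csf1r were lower in every PRATA sample, although neither passed the edgeR test. Csf1, the macrophage colony-stimulating factor that sensory neurons can release, was at 125.5, 147.7 and 102.5 CPM after PRATA and at 238.9, 211.3 and 202.4 CPM after sham. Il34, the other ligand, was at 5.16, 8.92 and 9.65 CPM after PRATA and at 20.9, 16.9 and 29.8 CPM after sham. For each ligand, all PRATA samples were below all sham samples, while the receptor's groups overlapped. The log2 fold changes were -0.80 (SE 0.19) for Csf1 and -1.5 (SE 0.31) for Il34, with unadjusted edgeR p of 0.00301 and 0.00122 and an edgeR adjusted p of 0.156 for each. DESeq2 gave adjusted p of 0.00872 and 0.00334 and voom 0.0373 and 0.0315, in fits that called 692 and 1173 genes. Over the alternatives the adjusted p ran up to 0.550, and the sign did not turn in any of the 17.

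**Figure D4:**
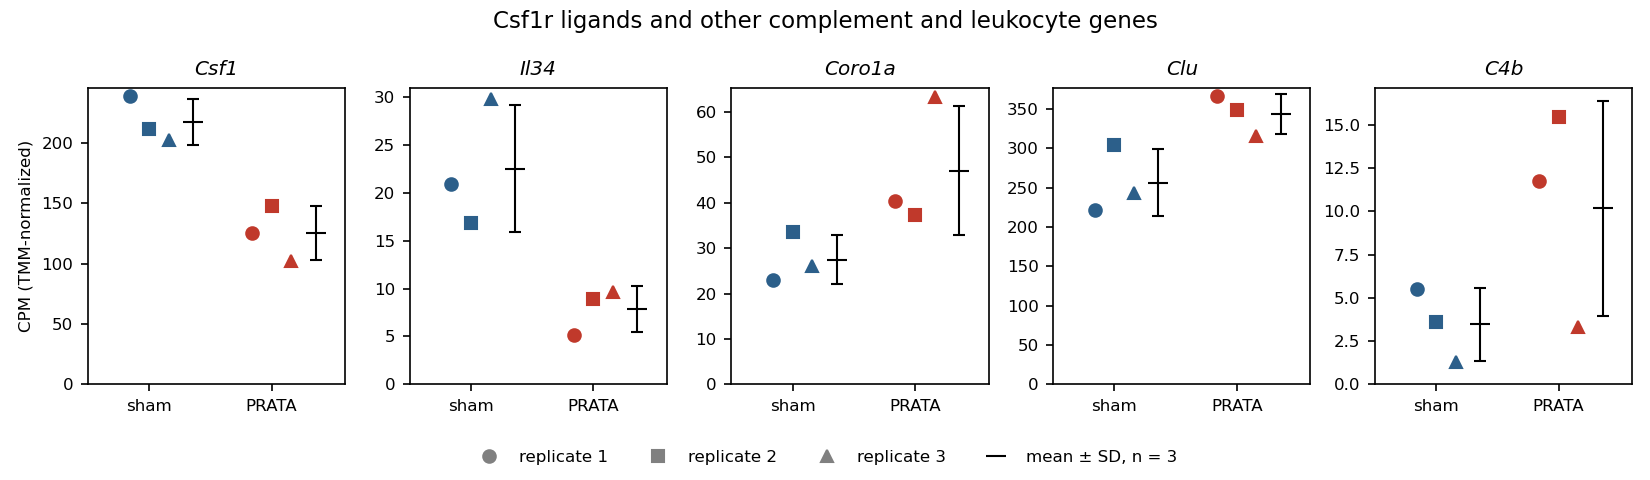
TMM-normalized CPM on a linear axis from 0 for the Csf1r ligands Csf1 and Il34 and for Coro1a, Clu and C4b; each symbol is 1 sample, and the bars are the mean ± SD of 3 samples. Csf1 and Il34 are lower and Coro1a and Clu higher in every PRATA sample than in any sham sample, while the groups of C4b overlap.

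Markers of other cells differed between samples as well. All 16 neuron markers were higher after PRATA by sign. At an unadjusted p under 0.05, 5 of them were higher, beside 8.19% of all genes tested. The summed neuron marker levels were 14030 to 21530 CPM after PRATA and 9784 to 14810 CPM after sham. Nefm, a neurofilament subunit, had a log2 fold change of 0.59, and Pou4f1, a sensory neuron transcription factor, one of 1.02 (edgeR adjusted p = 0.156). The glial list was split, with 8 genes higher and 8 lower and summed levels of 4134 to 7806 CPM against 5173 to 9262 CPM. Apoe, made by glia and also by macrophages, had a log2 fold change of -0.62 and Sox10, a glial transcription factor, one of -1.64. Among the PRATA samples, replicate 2, in which the C1q chains and Lyz2 were highest, also had the highest glial and the lowest neuronal sum. The glial sum was nevertheless larger in sham replicates 1 and 3, where C1q was lower. The part of these shifts in the members' levels was not tested.

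Of 11 fibroblast genes tested, 9 were lower by sign, with Col1a1 at a log2 fold change of -0.47 (-0.054 without PRATA replicate 1 and -1.53 without PRATA replicate 3) and Postn at -1.78, and summed levels of 508.3 to 2578 CPM after PRATA and 1436 to 2579 CPM after sham. Of 11 endothelial and mural genes, 9 were higher by sign, at 113.5 to 197.2 CPM against 75.9 to 211.8 CPM, with Esam at a log2 fold change of 0.59 and Pdgfrb at -0.23. Lymphocyte markers were close to absent, since only Lck of 15 passed the filter (log2 fold change -0.75) and the summed level was 2.65 to 9.57 CPM. Of 13 neutrophil and mast cell genes matched, 3 passed the filter. Their sum of 49.0 to 113.2 CPM was mostly Kit, which sensory neurons also express and whose log2 fold change was 0.77 (edgeR adjusted p = 0.168).

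**Figure D5:**
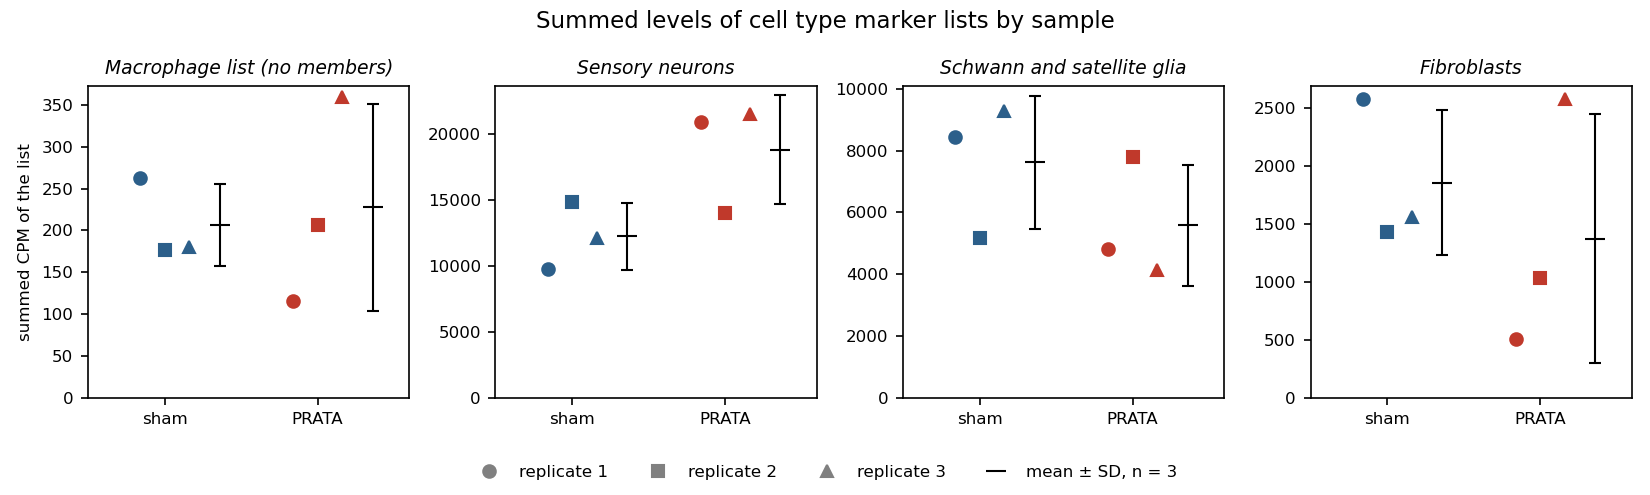
Summed TMM-normalized CPM of marker lists on linear axes from 0, by sample, with the mean ± SD of 3 samples per group. The macrophage list, shown without the members, ranges from 115.8 to 359.6 CPM and is highest in PRATA replicate 3 and sham replicate 1, which also have the highest fibroblast sums.

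Depth differed between the libraries, from 5892967 counts in sham replicate 2 to 15226952 in sham replicate 1, and 3 counts corresponded to 0.207 to 0.468 CPM. C1qa and Adgre1 had fewer than 10 counts in 1 sample each. Over the 6 samples together, Aif1 had the fewest counts of the members (192), followed by Adgre1 (195) and C1qa (240). Intervals and limits cover counting error and the spread among these samples alone. Reads were counted without molecular identifiers, so PCR copies could not be told from separate molecules.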

How the data were processed

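Isolated DRG neurons of SHRs (levels L1-L2) gave RNA that was sequenced as a stranded total RNA library with ribosomal fragments removed, in 150 bp paired reads. The authors deposited 1 table of raw counts, with a row per gene and a column for each of the 6 samples. The submitters' processing notes name STAR 2.7.3a, RSEM and DESeq2, whereas the paper's methods describe HISAT2, StringTie and Cuffdiff; which of them made the counts, the strand setting and the genome build are not given in the sources used here. Reads shared by near-identical genes may therefore be split in an unknown way.

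From these counts, genes were kept by filterByExpr (minimum count 10, minimum total 15), scaled by TMM and tested, PRATA against sham without a covariate, by the two-sided quasi-likelihood test of edgeR 4.0.16 in R 4.3.3, and p-values were adjusted by Benjamini-Hochberg across the 14919 genes that passed. CPM are TMM-normalized, and patterns across samples use log2(CPM + 1). DESeq2 1.42.0 and limma 3.58.1 served as alternatives, and Python 3.11.15 and matplotlib 3.10.9 for figures. The fit was checked on simulated data.

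The 10 members were given by name. Other genes were named by rule: in the complement, macrophage and class II lists, up to 4 genes per direction with non-overlapping groups and smallest p and the 2 of highest mean CPM; Csf1 and Il34; in each other list the gene of highest mean CPM and that of smallest p; and the 10 genes most correlated with the members' mean. Some genes that this rule picks are left out here. C4b and Irf8 and the 7SL RNA copy were added after their values were seen. Members and lists were chosen with earlier results of these data known. Groups share replicate numbers, which the labels do not tie to litters or days.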

Additional observations from a re-analysis of the deposited data

How the results depend on the processing

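No member reached an adjusted p under 0.05 in any of the 17 alternatives (other scalings, filters, tools and sets of samples). The count of members higher at an unadjusted p under 0.05, 1 with edgeR, became 3 with no filter on low counts, 2 with DESeq2, 0 with the replicate block and 4 within the 4 samples other than PRATA replicate 3 and sham replicate 1, and it ranged from 0 to 4 when 1 sample was left out. Of all genes, 8.19% were higher at this limit with edgeR, 5.34% with no filter, 4.43% with DESeq2, 4.16% with the block, 5.98% within the 4 samples and 3.47% to 13.4% with 1 sample left out. With the fold change limit added, these counts were again 3, 2, 0 and 4, voom gave 0, and the range was 0 to 4. Past both limits, 1.17% of all genes tested were higher in the main edgeR fit. That share is not given for the alternatives, so these counts cannot be set against a background. The count of lower members, 0 with edgeR, was 1 with voom (Adgre1) and 0 to 1 with 1 sample left out. It was the same with the fold change limit added. At an unadjusted p under 0.05 alone, voom put 15.3% of all genes lower. The fits with 1 sample left out put 5.44% to 14.1% of all genes lower. With 1 sample left out, the median log2 fold change of the members ranged from 0.53 (without PRATA replicate 2) to 1.32 (without sham replicate 1).

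Signs turned when 1 sample was left out for C3 (-0.47 to 0.41), Cd68 (-0.11 to 1.27), Cd74 (-0.066 to 1.24), Cd55 (-0.078 to 0.46), RT1-Da (-0.35 to 0.82) and Pdgfrb (-0.43 to 0.22). Within the 4 samples, Cd55 was at -0.17 and Pdgfrb at 0.17. The causes were not tested. Requiring at least 10 counts in every sample removed C1qa and Adgre1. Over all genes, edgeR called 0 at an adjusted p under 0.05, DESeq2 692, voom 1173 and edgeR without sham replicate 2 721. Deviations of same-numbered samples correlated at -0.388, -0.105 and -0.357, so no positive correlation by number was seen. The labels do not say whether same-numbered samples share a litter or day, and these values cannot settle it. With 3 samples per group, the 95% intervals of the members reached 1.03 to 1.62 log2 units to either side of the estimate, widest for C1qa, which had 5 counts in 1 sample.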
